A study of Homo sapiens with 36 samples.

Results

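The 38 genes described here are the cytosolic and mitochondrial aminoacyl-tRNA synthetases and the scaffold of the multisynthetase complex, taken by gene name from a table of 60662 gene IDs. They comprise 19 cytosolic synthetase genes, 16 mitochondrial ones and 3 scaffold genes (AIMP1, AIMP2 and EEF1E1). All 38 names were found, and all 38 passed the filter on low counts.

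The study used A549, a human lung adenocarcinoma cell line. Cells were transfected with DharmaFECT and siRNA against ATF4 (siATF4), siRNA against ATF6 (siATF6) or non-targeting siRNA (siControl), each at 100 nM. They were then kept in medium with 0 mM or 25 mM glucose for 6 or 16 h, in both cases with 10% dialysed serum and 2 mM glutamine, and without pyruvate. The 12 groups hold 3 biological replicates each, in 36 poly(A)-enriched, non-stranded libraries of a single cell line, and cells of 1 transfection were split between wells.

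Aminoacyl-tRNA synthetases attach each amino acid to its tRNA, which makes them the step that feeds amino acids to the ribosome. Nuclear genes encode both the enzymes of the cytosol and a separate set imported into mitochondria, while GARS1 and KARS1 each serve both compartments. In the cytosol EPRS1, IARS1, KARS1, LARS1, MARS1, QARS1 and RARS1 sit with 3 scaffold proteins in the multisynthetase complex, and the other 12 cytosolic genes described here encode enzymes outside it. ATF4 is the transcription factor of the integrated stress response and is known to act on genes for amino acid synthesis, amino acid transport and tRNA charging. ATF6 is anchored in the endoplasmic reticulum membrane, is released when unfolded proteins accumulate there, and then acts on chaperone genes.

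Expected counts per library totalled 39.4 to 78.7 M in 35 libraries. The library labelled siATF4, 0 mM, 6 h, replicate 3 held 2.87 M counts and correlated with no other library above 0.151, and it was left out of the main tests. The libraries labelled replicate 2 at 6 h in siATF6 and siControl ran against the others of their groups for the genes described here, and results at 6 h are given with and without them. The library siATF4, 0 mM, 16 h, replicate 3 had the lowest median correlation of the remaining 35 (0.945). Of 9 markers of A549 and lung epithelium, 8 had a median CPM (read counts scaled to a fixed library size with TMM factors) of at least 10, and EPCAM had 4.56. Of 12 markers of blood, endothelial, muscle, liver and glial cells, 10 had a median under 1 CPM and CD3E was at 0 in every library. CD14 (3.64) and GFAP (2.07) were the exceptions, and the summed level of the 12 at 16 h in siControl was 5.29 to 6.96 CPM in 0 mM and 8.15 to 9.96 CPM in 25 mM, and its part in the results was not tested.

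Both siRNA targets were measured first. ATF4 mRNA at 16 h was 188, 158 and 225 CPM in siATF4 cells in 0 mM, against 498, 456 and 426 CPM in siControl cells in 0 mM (log2 fold change -1.29 ± 0.14 SE, edgeR adjusted p = 0.000186). In 25 mM it was 133, 139 and 118 CPM in siATF4 cells, against 180, 147 and 145 CPM in siControl cells, and the difference of -0.28 did not pass the threshold (edgeR adjusted p = 0.759). On deprivation at 16 h ATF4 mRNA rose by 0.53 in siATF4, 1.48 in siATF6 and 1.54 in siControl cells (edgeR adjusted p = 0.0101, 1.27e-06 and 9.99e-07). The response in siATF4 minus that in siControl cells was -1.01 and did not pass (edgeR adjusted p = 0.057). ATF6 mRNA was lower in siATF6 than in siControl cells at 16 h, with log2 fold changes of -2.58 in 0 mM and -2.36 in 25 mM (edgeR adjusted p = 4.85e-06 and 1.79e-05). At 6 h ATF6 was lower in siATF6 cells by the same test (-2.17 in 0 mM and -2.30 in 25 mM). At 6 h ATF4 did not pass in siATF4 against siControl cells (-1.11 in 0 mM, edgeR adjusted p = 0.781, and -1.15 in 25 mM, edgeR adjusted p = 0.794).

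Per unit of length, the cytosolic enzymes formed the most abundant class. In siControl cells at 16 h the 19 cytosolic genes summed to 3120 ± 91.3 TPM (transcripts scaled by length to a fixed sum per library) in 0 mM and 1740 ± 43.5 TPM in 25 mM (SD, n = 3 each). The 16 mitochondrial genes summed to 325 ± 28.2 TPM in 0 mM and 397 ± 8.33 TPM in 25 mM, and the 3 scaffold genes to 182 ± 13.7 TPM in 0 mM and 182 ± 10.1 TPM in 25 mM. These sums are shares of each library's RNA, so fewer cells and less RNA per cell cannot be told apart from them.

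In 25 mM glucose the highest level was that of KARS1, the lysine enzyme, at 143 ± 6.37 TPM, followed by GARS1 (glycine) at 135 ± 1.64 TPM and WARS1 (tryptophan) at 135 ± 5.99 TPM. Ranges of these 3 and of IARS1 (133 ± 1.11 TPM) and TARS1 (132 ± 11.9 TPM) met or overlapped their neighbours', apart from a narrow step between KARS1 and GARS1. In 0 mM the order was led by WARS1 at 570 ± 5.69 TPM, GARS1 at 432 ± 26.1 TPM and AARS1 (alanine) at 308 ± 43.1 TPM. The lowest cytosolic gene was FARSB, a subunit of the phenylalanine enzyme, at 13.3 ± 2.39 TPM in 0 mM and 17.2 ± 0.62 TPM in 25 mM, and the lowest mitochondrial gene in 25 mM was PARS2 (proline) at 3.17 ± 0.184 TPM.

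**Figure D1:**
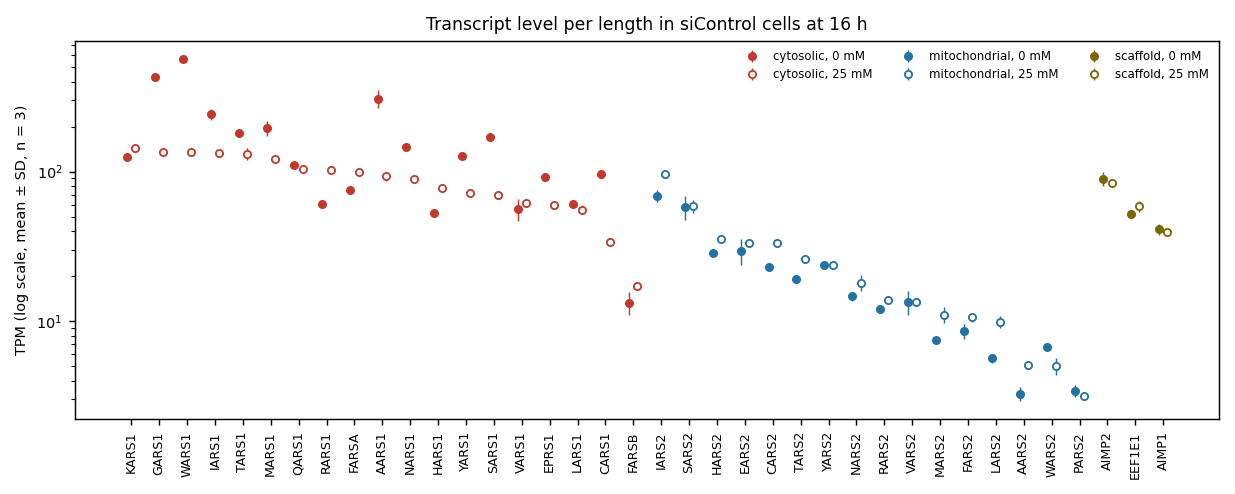
Transcript level of each of the 38 genes in siControl cells at 16 h, in TPM on a log axis (mean ± SD, n = 3), in 0 mM (filled) and 25 mM glucose (open), by class and in descending order of the 25 mM level. WARS1 stands at 570 TPM in 0 mM and 135 TPM in 25 mM, and all mitochondrial genes but IARS2 and SARS2 lie under 40 TPM in 25 mM.

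After 16 h without glucose, most cytosolic synthetase mRNAs were raised in siControl cells. Of the 19 cytosolic genes 12 rose, 2 fell and 5 did not pass the threshold (edgeR quasi-likelihood test, Benjamini-Hochberg adjusted p below 0.05), with a median log2 fold change of 0.77, against 0.01 over all 18013 genes tested. Over all genes tested, 14.6% rose and 14.5% fell (29.0% in either direction). Of the 16 mitochondrial genes 1 rose, 4 fell and 11 did not pass (median -0.17), and of the 3 scaffold genes none passed with edgeR, by DESeq2 or at an unadjusted p below 0.05.

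WARS1, the tryptophan enzyme, rose most. It had 638, 643 and 621 CPM in 0 mM, against 135, 141 and 133 CPM in 25 mM (log2 fold change 2.21 ± 0.08 SE, adjusted p = 2.48e-11). Every 0 mM library stood well above every 25 mM library.

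AARS1, the alanine enzyme, had 672, 907 and 801 CPM in 0 mM, against 210, 240 and 203 CPM in 25 mM (1.86 ± 0.14, adjusted p = 8.93e-08). GARS1, the glycine enzyme of cytosol and mitochondria, had 596, 542 and 533 CPM in 0 mM, against 148, 167 and 160 CPM in 25 mM (1.81 ± 0.09, adjusted p = 1.93e-09). CARS1, the cysteine enzyme, had 177, 169 and 178 CPM in 0 mM, against 53.2, 57.2 and 55.8 CPM in 25 mM (1.65 ± 0.08, adjusted p = 2.18e-09). In all 3 genes the 0 mM libraries were the higher ones and the groups did not overlap.

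SARS1, the serine enzyme, had 205, 226 and 225 CPM in 0 mM, against 76.9, 85.7 and 81.8 CPM in 25 mM (1.42 ± 0.13, adjusted p = 1.02e-06). IARS1, the isoleucine enzyme of the complex, had 547, 642 and 618 CPM in 0 mM, against 287, 311 and 305 CPM in 25 mM (1.00 ± 0.13, adjusted p = 2.37e-05). Both pairs of groups were apart as well. The other raised cytosolic genes changed less: YARS1 (tyrosine) by 0.96, NARS1 (asparagine) by 0.84, MARS1 (methionine) by 0.82, EPRS1 (glutamate and proline) by 0.77, TARS1 (threonine) by 0.58 and LARS1 (leucine) by 0.27 on the log2 scale.

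The 2 cytosolic genes that fell were RARS1, the arginine enzyme of the complex, and HARS1, the histidine enzyme. RARS1 averaged 92.6 ± 4.45 CPM in 0 mM and 140 ± 2.4 CPM in 25 mM (SD, n = 3 each), a log2 fold change of -0.60 (edgeR adjusted p = 0.000157). HARS1 averaged 74.7 ± 0.57 CPM in 0 mM and 98.9 ± 2.71 CPM in 25 mM (-0.41, edgeR adjusted p = 0.0244). FARSA and FARSB, the subunits of the phenylalanine enzyme, had -0.26 and -0.23, KARS1 had -0.06, VARS1 (valine) -0.01 and QARS1 (glutamine) 0.23, and none of these 5 passed. The call was lost for LARS1 on leaving out any 1 of the 6 libraries compared, and for HARS1 on leaving out 5 of the 6.

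Genes that rose were found inside and outside the complex and in both catalytic classes. Within the complex 4 of 7 genes rose and 1 fell, and outside it 8 of 12 rose and 1 fell. Among enzymes with the class I fold 7 of 10 rose and 1 fell, and among class II enzymes 5 of 9 rose and 1 fell. These counts are descriptions, and the differences between the subgroups were not tested.

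Of the 16 mitochondrial enzymes 5 passed, 4 of them lower, which is close to the 29.0% of all genes that passed. LARS2, the mitochondrial leucine enzyme, had 17.2, 19.2 and 18.9 CPM in 0 mM, against 30.9, 30.3 and 27.4 CPM in 25 mM (-0.68 ± 0.11, edgeR adjusted p = 0.000233). AARS2 (alanine, -0.50), MARS2 (methionine, -0.43) and TARS2 (threonine, -0.30) also fell. WARS2, the mitochondrial tryptophan enzyme, was the 1 that rose, with 11.9, 13.0 and 12.2 CPM in 0 mM, against 8.94, 8.89 and 7.4 CPM in 25 mM (0.55 ± 0.13, edgeR adjusted p = 0.00349). The groups of LARS2 and of WARS2 did not overlap, while the calls of MARS2 and TARS2 were lost on leaving out 1 library in 6 and 4 of the 6 cases.

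No scaffold gene passed. AIMP1, which holds the complex together, had 59.3, 70.3 and 57.6 CPM in 0 mM, against 51.4, 57.5 and 54.9 CPM in 25 mM (0.19, edgeR adjusted p = 0.166). AIMP2, its central scaffold protein, had 60.4, 75.1 and 69.8 CPM in 0 mM, against 58.8, 60.1 and 56.1 CPM in 25 mM (0.23, edgeR adjusted p = 0.355). EEF1E1, also called AIMP3, had 24.2, 26.8 and 23.1 CPM in 0 mM, against 26.4, 25.1 and 24.1 CPM in 25 mM (-0.03, edgeR adjusted p = 0.902). For AIMP1 and AIMP2 the lowest library in 0 mM stood just above the highest in 25 mM, by less than the spread within either group, and EEF1E1 values were mixed.

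**Figure D2:**
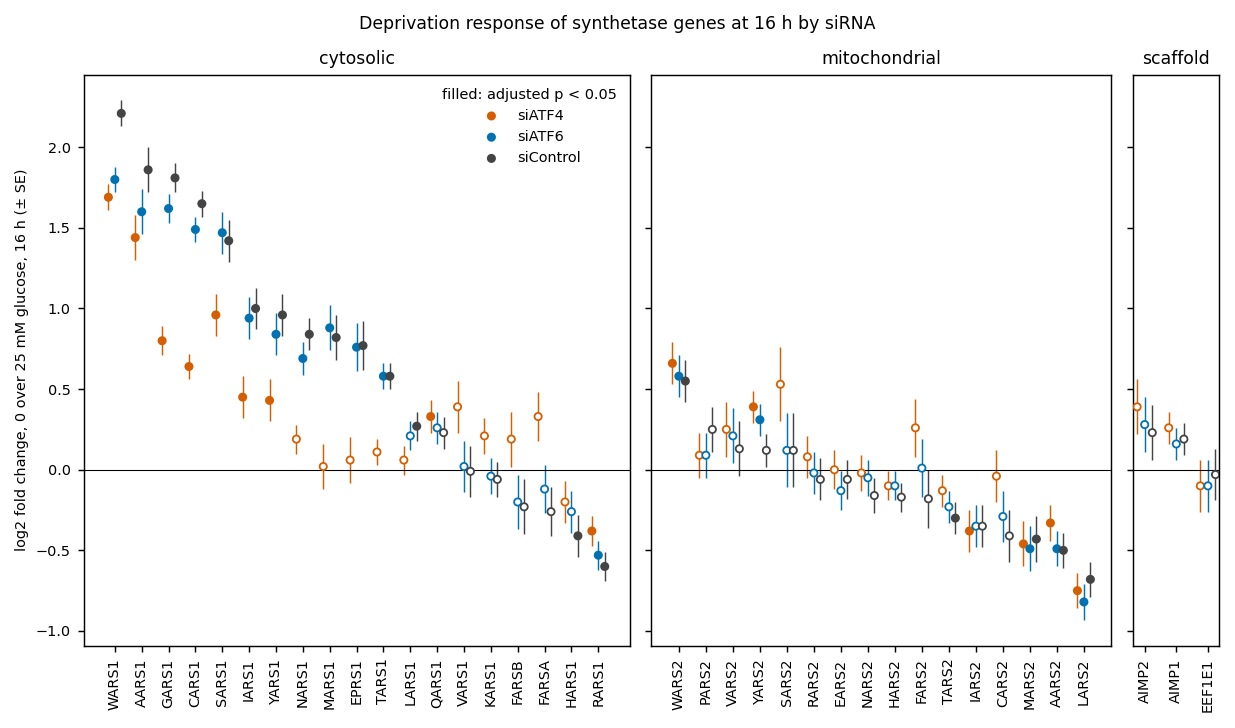
Log2 fold change of 0 over 25 mM glucose at 16 h (y axis, ± SE) of each of the 38 genes in siATF4, siATF6 and siControl cells, by class and ordered by the siControl value; filled points passed an adjusted p of 0.05 in edgeR. WARS1 leads with 1.69 in siATF4, 1.80 in siATF6 and 2.21 in siControl cells, and GARS1 and CARS1 show the widest gap between siATF4 (0.80 and 0.64) and siControl (1.81 and 1.65).

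Enzymes for the same amino acid in the cytosol and in mitochondria differed in their response. Of 16 such pairs, 2 of which share FARS2, the cytosolic member had the larger log2 fold change in 13 in siATF4 cells, in 11 in siATF6 cells and in 11 in siControl cells. The median difference within pairs was smaller in siATF4 cells (0.23) than in siATF6 (0.85) or siControl cells (0.92). For alanine, AARS1 exceeded AARS2 by 6.56 ± 0.15 log2 units of TPM in 0 mM and 4.19 ± 0.09 in 25 mM in siControl cells (SD, n = 3 each). For cysteine, CARS1 exceeded CARS2 by 2.08 ± 0.01 log2 units of TPM in 0 mM and 0.01 ± 0.04 in 25 mM, where the levels did not differ beyond their spread. The arginine pair went the other way: RARS1 exceeded RARS2 by 2.34 ± 0.04 in 0 mM and 2.89 ± 0.06 in 25 mM.

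The promoters of several raised genes share a short sequence, and they are shown because these genes moved together. ATF4 dimers are known to bind composite elements with the core TGATGNAA, where N is any base. This core was searched on both strands in the 300 bases from 250 before to 50 after the start given by RefSeq (GRCh38.p14), for 33 of the 38 genes (16 cytosolic, 14 mitochondrial and 3 scaffold). AARS2, LARS1, VARS1, VARS2 and YARS1 had no entry. The core was present in 7 of 16 cytosolic promoters (43.8%), in 1 of 14 mitochondrial ones (7.14%, YARS2) and in none of the 3 scaffold ones, against 3.62% of all 35116 promoters in the table. All 7 cytosolic genes with the core are among the 12 that rose in siControl cells at 16 h, while WARS1, SARS1 and EPRS1 rose without it in this window. Each stretch below reads 5′ to 3′ on the strand of its gene, with the core or its reverse complement in capitals.
AARS1: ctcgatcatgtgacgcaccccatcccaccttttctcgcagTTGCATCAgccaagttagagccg
CARS1: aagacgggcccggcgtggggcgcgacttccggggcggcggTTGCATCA
GARS1: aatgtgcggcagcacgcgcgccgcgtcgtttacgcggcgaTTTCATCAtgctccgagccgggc
IARS1: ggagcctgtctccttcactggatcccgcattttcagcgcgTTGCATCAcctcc
MARS1: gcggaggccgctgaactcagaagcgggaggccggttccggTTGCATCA
NARS1: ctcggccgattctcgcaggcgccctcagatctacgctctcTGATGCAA
TARS1: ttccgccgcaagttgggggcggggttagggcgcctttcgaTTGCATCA

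The AARS1 stretch is chr16:70289671-70289733 on the minus strand, that of CARS1 chr11:3057418-3057465 on the minus strand, and that of GARS1 chr7:30594805-30594867 on the plus strand. IARS1 is chr9:92293698-92293750 (minus), MARS1 chr12:57488024-57488071 (plus), NARS1 chr18:57621815-57621862 (minus) and TARS1 chr5:33440927-33440974 (plus). The core began 187 bases before the start of AARS1 and within 33 bases of the start in the other 6. The same 8 letters, TTGCATCA on the gene's strand, stand in AARS1, CARS1, IARS1, MARS1 and TARS1, while GARS1 has TTTCATCA and NARS1 carries TGATGCAA in the other orientation. The endoplasmic reticulum stress response element known for ATF6 was in none of the 33 promoters and in 0.0769% of all. The letters TGACGTCA, known as the cyclic AMP response element, were in that of AIMP2 alone and in 1.85% of all. A match is a description of letters, and no binding was measured.

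Cytosolic synthetases also rose on deprivation in siATF4 cells, with a lower median. ATF4 mRNA itself rose on deprivation in these cells too, by 0.53 on the log2 scale. In siATF4 cells at 16 h, 8 of the 19 cytosolic genes rose and 1 fell (median 0.33), against 14.9% of all genes that rose and 14.2% that fell (29.1% in either direction). WARS1 rose by 1.69, AARS1 by 1.44, SARS1 by 0.96, GARS1 by 0.80, CARS1 by 0.64 and IARS1 by 0.45 on the log2 scale, followed by YARS1 (0.43) and QARS1 (0.33), and RARS1 fell by 0.38. EPRS1 (0.06), MARS1 (0.02), TARS1 (0.11), NARS1 (0.19) and LARS1 (0.06) did not pass in siATF4 cells.

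Of the mitochondrial genes WARS2 (0.66) and YARS2 (0.39) rose in siATF4 cells, and LARS2 (-0.75), MARS2 (-0.46), IARS2 (-0.38) and AARS2 (-0.33) fell. No scaffold gene passed with edgeR, and 2 of the 3 had an unadjusted p below 0.05, as did 7319 of all 18013 genes. DESeq2 called AIMP1 (0.28, DESeq2 adjusted p = 0.0208). On leaving out 1 library, the call was lost in 5 of 6 cases for AARS2, 4 for IARS2, 3 for QARS1, 2 each for IARS1, MARS2 and YARS1, and 1 for YARS2. Without siATF4, 0 mM, replicate 3 the value was 0.27 for YARS1, which did not pass, and -0.26 for MARS2, which did. Calls were also gained in that fit: NARS1 (0.28, edgeR adjusted p = 0.0237), HARS1 (-0.39, edgeR adjusted p = 0.00841) and CARS2 (-0.33, edgeR adjusted p = 0.0176). The count of 15 genes past the threshold among the 38 was 8 without siATF4, 25 mM, replicate 1, and 14 without siATF4, 0 mM, replicate 3. It was 6 when only the 6 libraries compared were fitted.

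The difference between the responses was tested directly. CARS1 and GARS1 rose less in siATF4 than in siControl cells, with a difference of -1.02 each on the log2 scale (SE 0.12 for CARS1 and 0.13 for GARS1, edgeR adjusted p = 0.000744 and 0.00159). Over all 18013 genes, 0.172% passed this test (0.0111% higher and 0.161% lower in siATF4). An unadjusted p below 0.05 was found for 12 of the 19 cytosolic genes and for 1650 of all 18013 genes. WARS1 (-0.52, adjusted p = 0.0596), NARS1 (-0.66, adjusted p = 0.0683), MARS1 (-0.79, adjusted p = 0.178), EPRS1 (-0.71, adjusted p = 0.273) and AARS1 (-0.42, adjusted p = 0.536) did not pass in edgeR without a replicate block. WARS1 passed without siATF4, 0 mM, replicate 3 (-0.52, edgeR adjusted p = 0.0316). DESeq2 called CARS1, GARS1, MARS1, NARS1, TARS1 and WARS1.

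GARS1 in siATF4 cells had 361, 347 and 359 CPM in 0 mM, against 181, 214 and 210 CPM in 25 mM. CARS1 in siATF4 cells had 110, 111 and 118 CPM in 0 mM, against 64.8, 76.2 and 74.5 CPM in 25 mM. Both genes were thus still higher without glucose in every siATF4 library, at 0 mM levels below every siControl library. With only the 12 libraries compared, or with the transfection as a block, CARS1 alone passed among the 38, and with all 36 libraries none did.

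The same 2 genes also rose less in siATF4 than in siATF6 cells, with differences of -0.86 for CARS1 (edgeR adjusted p = 0.00361) and -0.82 for GARS1 (edgeR adjusted p = 0.00775), where 0.355% of all genes passed, with 0.205% of all genes lower in siATF4. With the transfection as a block CARS1 alone of the 38 passed against siATF6, and with only the 12 libraries compared, or with all 36, none did. No gene passed when the siATF6 response was set against the siControl response, among members or among all genes (0% called, edgeR). Of the 38 members 1, WARS1 (-0.41), had an unadjusted p below 0.05, as did 412 of all 18013 genes. Of the members, DESeq2 called WARS1 alone, where it called 17 genes in all. The 3 tests share their samples, and they are given side by side for that reason.

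AARS1 and WARS1 had the largest responses of the 38 in siATF4 cells. AARS1 there had 939, 1020 and 943 CPM in 0 mM, against 299, 383 and 376 CPM in 25 mM. WARS1 had 469, 451 and 459 CPM in 0 mM, against 142, 144 and 136 CPM in 25 mM. For AARS1 the siATF4 libraries were above every siControl library at both glucose levels, while for WARS1 in 0 mM they were below every siControl library.

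SARS1 in siATF4 cells had 174, 179 and 248 CPM in 0 mM, against 86.8, 112 and 107 CPM in 25 mM, and IARS1 had 496, 605 and 431 CPM in 0 mM, against 346, 352 and 409 CPM in 25 mM. Replicate 3 in 0 mM was the highest of its group for SARS1 and the lowest for IARS1. Without that library the log2 fold changes were 0.78 for SARS1 and 0.56 for IARS1, both past the threshold. The IARS1 call was lost without siATF4, 0 mM, replicate 2 (0.31, edgeR adjusted p = 0.0583), without siATF4, 25 mM, replicate 1, and with only the 6 libraries compared.

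MARS1 and EPRS1, both enzymes of the complex, rose in siControl cells and did not pass in siATF4 cells. MARS1 averaged 261 ± 31.9 CPM in 0 mM and 254 ± 26.8 CPM in 25 mM in siATF4 cells, against 345 ± 38.9 CPM in 0 mM and 196 ± 15.1 CPM in 25 mM in siControl cells (SD, n = 3 each). EPRS1 averaged 230 ± 55.3 CPM in 0 mM and 219 ± 19.8 CPM in 25 mM in siATF4 cells, against 337 ± 19.8 CPM in 0 mM and 198 ± 9.7 CPM in 25 mM in siControl cells. The difference between the responses did not pass for either gene in edgeR without a replicate block, while DESeq2 called MARS1. MARS1 shares 355 exon bases (5.05% of its exon length) with the opposite-strand gene DDIT3, and these libraries do not keep strand. DDIT3, a stress transcription factor, had 322, 282 and 503 CPM in 0 mM, against 8.79, 15.6 and 13.5 CPM in 25 mM, in siATF4 cells. In siControl cells it had 281, 266 and 252 CPM in 0 mM, against 5.04, 5.41 and 5.11 CPM in 25 mM, and the part of DDIT3 reads in the MARS1 values was not tested.

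**Figure D3:**
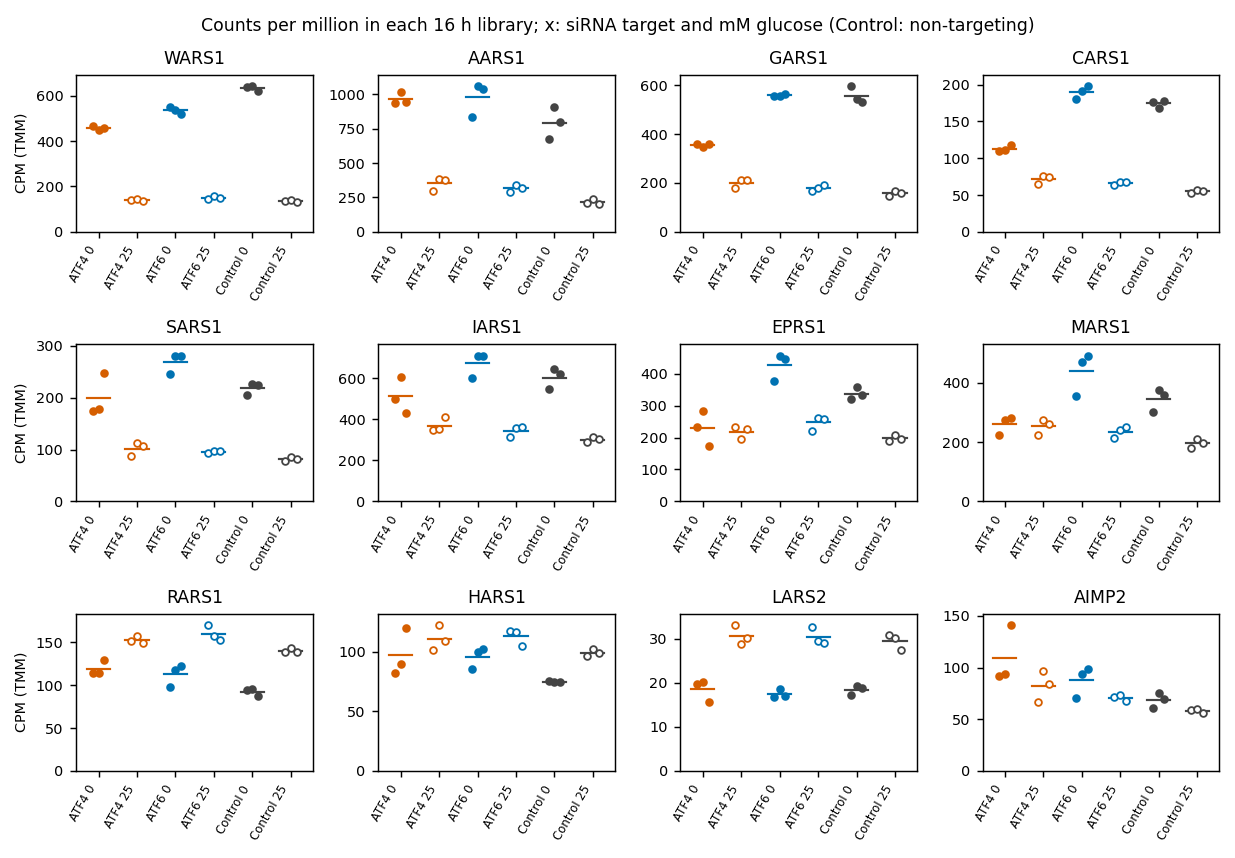
TMM-normalized CPM (y axis from 0) of 12 genes in each of the 18 libraries of 16 h, in 0 mM (filled) and 25 mM glucose (open) for siATF4, siATF6 and siControl cells; the bar is the mean of 3. For GARS1 the siATF4 libraries in 0 mM lie at 347 to 361 CPM, below all siControl libraries in 0 mM, at 533 to 596 CPM.

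Compared directly in 0 mM at 16 h, siATF4 cells differed from siControl cells in both directions. Of the 19 cytosolic genes 4 were higher and 5 were lower, where 7.32% of all genes were higher and 5.09% were lower (12.4% in either direction). GARS1 (-0.66, edgeR adjusted p = 0.000551), CARS1 (-0.64, 0.000411), EPRS1 (-0.57, 0.0227), WARS1 (-0.48, 0.00156) and NARS1 (-0.32, 0.0418) were lower. FARSA (0.66, edgeR adjusted p = 0.0148), KARS1 (0.57, 0.00613), VARS1 (0.53, 0.0447) and RARS1 (0.34, 0.029) were higher. None of the 4 higher genes is among the 12 raised by deprivation in siControl cells. Both tests use the same siControl libraries in 0 mM, so these 2 sets are not independent and nothing is concluded from this. With the replicate number as a block AARS1, which is among the 12, was also higher in siATF4 cells (0.28, edgeR adjusted p = 0.038).

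Of the other classes, YARS2, the mitochondrial tyrosine enzyme, was higher in siATF4 cells by 0.44 (edgeR adjusted p = 0.0164) and AIMP2 by 0.66 (edgeR adjusted p = 0.0255). AIMP2 shares 28.9% of its exon bases with the opposite-strand gene EIF2AK1, and reads of the 2 genes cannot be told apart there without strand. AIMP2 had 91.5, 94.2 and 141 CPM in siATF4 cells in 0 mM, and its siControl values were given above. AIMP1 had 69.1, 72.1 and 79.0 CPM and EEF1E1 21.1, 24.1 and 33.3 CPM in siATF4 cells in 0 mM, neither past the threshold against siControl. Replicate 3 was the highest siATF4 library for all 3 scaffold genes, and without it the AIMP2 difference was 0.42 and did not pass.

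These calls depend on the libraries used. The 11 genes called became 5 without siATF4 replicate 3, and 17 without siATF4 replicate 2. They became 6 without siControl replicate 1, 6 without siControl replicate 2 and 4 without siControl replicate 3, and none was called with only the 6 libraries compared, where no gene at all passed. GARS1, CARS1, WARS1 and KARS1 kept their calls whichever of the 6 libraries was left out.

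In 25 mM glucose no member passed between siATF4 and siControl cells in edgeR, where 0.0444% of all genes did (0.0222% higher and 0.0222% lower). All 19 cytosolic differences were above 0, between 0.05 and 0.70 (median 0.3, against 0.0 over all genes). An unadjusted p below 0.05 was found for 12 of the 38 members and for 1248 of all 18013 genes. DESeq2 called 6 members (AARS1, CARS1, GARS1, LARS1, NARS1 and TARS1, all higher) and 162 genes in all. AARS1 differed most, at 353 ± 46.6 CPM in siATF4 cells and 218 ± 19.5 CPM in siControl cells (log2 fold change 0.70, edgeR adjusted p = 0.101). With the replicate number as a block, AARS1 passed (0.69, edgeR adjusted p = 0.00841). ATF4 mRNA itself did not differ past the threshold in 25 mM.

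The deprivation response was also present in siATF6 cells. In siATF6 cells at 16 h, 11 of 19 cytosolic genes rose and 1 fell (median 0.69), with 15.6% of all genes higher and 17.9% lower (33.5% in either direction). WARS1 rose by 1.80, GARS1 by 1.62, AARS1 by 1.60, CARS1 by 1.49, SARS1 by 1.47 and IARS1 by 0.94 on the log2 scale, and RARS1 fell by 0.53. WARS2 (0.58) and YARS2 (0.31) rose, LARS2 (-0.82), AARS2 (-0.49) and MARS2 (-0.49) fell, and no scaffold gene passed with edgeR, with DESeq2 or at an unadjusted p below 0.05. The YARS2 call was lost on leaving out any 1 of the 6 libraries.

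GARS1 in siATF6 cells had 554, 554 and 566 CPM in 0 mM, against 167, 178 and 190 CPM in 25 mM. CARS1 had 181, 192 and 198 CPM in 0 mM, against 63.3, 68.1 and 67.8 CPM in 25 mM. WARS1 had 550, 540 and 519 CPM in 0 mM, against 143, 158 and 151 CPM in 25 mM. The WARS1 libraries of siATF6 in 0 mM were all below those of siControl, while the CARS1 ones were all above.

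The remaining large responders in siATF6 cells were AARS1, with 839, 1060 and 1040 CPM in 0 mM, against 291, 337 and 321 CPM in 25 mM, and SARS1, with 245, 280 and 281 CPM in 0 mM, against 92.6, 97.5 and 96.3 CPM in 25 mM. IARS1 had 602, 709 and 706 CPM in 0 mM, against 311, 359 and 361 CPM in 25 mM. No group of these 3 genes overlapped between 0 and 25 mM.

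Set against siControl in 0 mM at 16 h, siATF6 cells differed past the threshold in 1 member, where 1.11% of all genes were higher and 2.91% were lower (4.02% in either direction). YARS2 averaged 51.0 ± 0.916 CPM in siATF6 cells and 36.6 ± 1.63 CPM in siControl cells (SD, n = 3 each), a log2 fold change of 0.46 (edgeR adjusted p = 0.0194). This call was lost without siControl replicate 2 or 3 and without siATF6 replicate 2 or 3, while 2 members passed without siATF6 replicate 1. With the replicate number as a block 3 members passed, MARS1 (0.32) and YARS2 (0.46) higher and WARS1 (-0.26) lower, where 1836 genes passed in all. In 25 mM no member passed in edgeR, where 0.749% of all genes did. An unadjusted p below 0.05 was found there for 12 members and for 1962 of all 18013 genes. DESeq2 called 3 members (AARS1, CARS1 and TARS2) and 479 genes in all in 25 mM. The replicate block called AARS1 alone of the members (0.54, edgeR adjusted p = 0.00541) and 531 genes in all.

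At 6 h no member passed for deprivation in any siRNA group, and no other gene did (0% of 18355 genes in edgeR). At an unadjusted p below 0.05 stood 1 member in siATF4 cells (FARSA, 0.27) and none in siATF6 or siControl cells, and DESeq2 called no member. Over all 18355 genes the unadjusted numbers were 695 in siATF4, 148 in siATF6 and 181 in siControl cells. The pairs of libraries with the same number were not alike. Of the 12 cytosolic genes raised at 16 h, those higher in 0 than in 25 mM at 6 h in siControl cells numbered 11 in replicate 1, 0 in replicate 2 and 11 in replicate 3, with median log2 ratios of 0.32, -0.63 and 0.32. In siATF6 cells the numbers were 11, 0 and 10, and in siATF4 cells they were 11 and 12 in replicates 1 and 2. With pairs opposed in siATF6 and siControl cells, the lack of calls at 6 h does not show a lack of response there.

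WARS1 shows the split. In siControl cells at 6 h it had 270, 108 and 247 CPM in 0 mM, against 157, 221 and 137 CPM in 25 mM. Replicate 2 was the lowest library in 0 mM and the highest in 25 mM, and the same held in siATF6 cells, with 263, 137 and 227 CPM in 0 mM, against 168, 198 and 158 CPM in 25 mM. No library was moved to another group.

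Without the 6 h libraries of replicate 2, 2 members passed in each siRNA group, AARS1 and WARS1, both higher in 0 mM. WARS1 rose by 0.98 in siATF4, 0.61 in siATF6 and 0.82 in siControl cells (edgeR adjusted p = 0.0134, 0.0365 and 0.00743), and AARS1 by 0.70, 0.51 and 0.67 (edgeR adjusted p = 0.0245, 0.0346 and 0.0072). Of all genes, 1.17% then passed in siATF4 (0.862% higher), 1.82% in siATF6 (1.06% higher) and 3.92% in siControl cells (1.90% higher and 2.01% lower). GARS1 (0.33, adjusted p = 0.0995) and CARS1 (0.30, adjusted p = 0.135) did not pass in siControl cells. The libraries left out in siATF6 and siControl differ in the same quantity that is tested. Those of siATF4 were left out too, although all 12 raised genes were higher in 0 mM in that pair. The siATF4 group in 0 mM then holds 1 library, assumed to vary like the other groups.

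**Figure D4:**
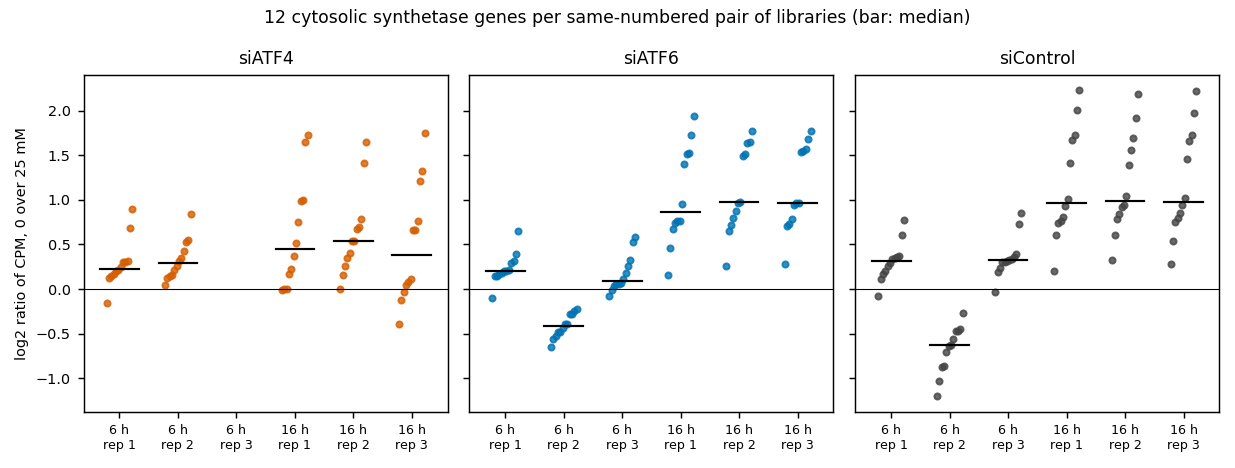
Log2 ratio of CPM in 0 over 25 mM glucose (y axis) in each pair of libraries with the same number, for the 12 cytosolic genes that rose at 16 h in siControl cells (points; the bar is their median), in siATF4, siATF6 and siControl cells. In siControl the medians are 0.32, -0.63 and 0.32 at 6 h and 0.97, 0.99 and 0.98 at 16 h; siATF4 replicate 3 at 6 h is not shown.

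The response in siControl cells was larger at 16 h than at 6 h for 9 cytosolic genes, by the interaction of glucose and time. The difference was 1.94 for WARS1, 1.79 for GARS1, 1.70 for AARS1, 1.67 for CARS1 and 1.35 for SARS1, then 0.99 for MARS1, 0.97 for YARS1, 0.92 for IARS1 and 0.74 for NARS1. It was negative for RARS1 (-0.54), AARS2 (-0.59) and LARS2 (-0.53), and of all genes 4.09% passed upward and 4.53% downward (8.62% in either direction). Without 6 h replicate 2 the same 9 cytosolic genes passed, GARS1 with 1.49, WARS1 with 1.40, CARS1 with 1.35 and AARS1 with 1.19, while RARS1 (-0.42), AARS2 (-0.50) and LARS2 (-0.35) did not, where 4.50% of all genes passed. Leaving out siControl, 0 mM, 6 h, replicate 2 alone gave 6 members past the threshold in place of 12. This interaction does not tell which glucose level moved. CARS1 in siControl cells had 172, 77.3 and 154 CPM in 0 mM at 6 h, against 177, 169 and 178 CPM at 16 h. In 25 mM it had 140, 141 and 124 CPM at 6 h, against 53.2, 57.2 and 55.8 CPM at 16 h. WARS1 had 270, 108 and 247 CPM in 0 mM at 6 h, against 638, 643 and 621 CPM at 16 h. In 25 mM it had 157, 221 and 137, against 135, 141 and 133 CPM.

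At 6 h no member passed between siATF4 and siControl cells at either glucose level, and no other gene did, ATF4 included (0% called in edgeR). At an unadjusted p below 0.05 stood 3 members in 0 mM and 1 in 25 mM, against 968 and 755 of all 18355 genes, and DESeq2 called no member. Between siATF6 and siControl cells no member passed, where 0.311% of all genes did in 0 mM and 0.496% in 25 mM. Unadjusted, 8 members in 0 mM and 7 in 25 mM were below 0.05, against 2257 and 2197 of all 18355 genes. DESeq2 called 3 members in 0 mM (QARS1, SARS2 and YARS2) and 1 in 25 mM (YARS2), where it called 436 and 423 genes in all. With the replicate number as a block, AIMP2, QARS1, SARS2 and YARS2 were higher in siATF6 cells in 0 mM (0.26 to 0.52), and AIMP2, SARS2 and YARS2 in 25 mM (0.30 to 0.32). That block called 905 genes in all in 0 mM and 910 in 25 mM. These comparisons between siRNA groups include the 6 h libraries of replicate 2.

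Other genes of tRNA supply and translation moved in both directions in siControl cells at 16 h, where 14.6% of all genes rose and 14.5% fell. Of 22 genes of tRNA maturation and export 2 rose and 7 fell, with POP1, a subunit of RNase P, at -0.90 and ELAC2, the 3′ end nuclease of tRNA precursors, at -0.67. The 2 that rose, named after their values were seen, were XPOT, the export receptor of tRNA, at 0.95 and TSEN15, a subunit of the tRNA splicing endonuclease, at 0.54. Of 22 genes of RNA polymerase III and its factors 4 rose and 7 fell, and of 11 elongation factors 3 rose and 1 fell, with EEF2 at 0.94. The median log2 fold change of these 3 lists was -0.20, -0.16 and 0.35, against 0.77 for the cytosolic synthetases and 0.01 for all genes.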

How the data were processed

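The authors deposited 1 table of RSEM expected counts for 60662 gene IDs in 36 libraries, and the submitters' processing notes name fastp, STAR and RSEM with GRCh38. Their versions and the gene annotation behind the counts are not stated in the labels. Libraries were matched through the column names in the labels and counts were rounded to whole numbers. Tests used edgeR 4.0.16 (limma 3.58.1, R 4.3.3): genes were kept by filterByExpr with the groups given (count of at least 10, total of at least 15), then TMM scaling, 1 mean per group, robust quasi-likelihood F tests and Benjamini-Hochberg adjustment over all genes tested. The 18 libraries of 16 h, 17 of 6 h, and all 35 for the interaction with time were fitted. CPM use the TMM factors of the 35 libraries, and TPM use the table's effective lengths. DESeq2 1.42.0 was an alternative. The lowest chi-square per gene between replicates was 9.07, so every pair differed by more than counting noise. At 16 h in siControl it was 10.4 between replicates 2 and 3 in 25 mM, against 56.1 and 63.2 with replicate 1. In 0 mM it was 15.55, against 108.6 and 80.2. In siATF6 it was 9.07 in 25 mM, against 55.2 and 55.4, and 10.1 in 0 mM, against 100 and 113. Whether replicates 2 and 3 are as independent as replicate 1 was not tested.

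The 38 members, the other lists, the tests and the libraries left out were chosen with earlier results of these data known. Any member could be named: up to 6 per direction and class with the largest change past 0.05, and any that went against its class. Values per library were given for the 6 that changed most in siControl at 16 h, the mitochondrial extremes, the scaffold genes and members past the interaction with siATF4. DDIT3 and other members with group means were named after their values were seen. 1 further list of charging genes is not reported here. P-values rest on cultures of 1 cell line.

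Same-numbered libraries were checked for deviations that correlate above 0.1 in all 3 pairs. This held for deprivation at 16 h in siATF6 and siControl, for siATF4 against siControl in 25 mM at both times, and for siATF6 against siControl throughout. It did not hold for siATF4 against siControl in 0 mM at 16 h (lowest 0.092) or for deprivation in siATF4 at 16 h (lowest -0.358). Nor did it hold for deprivation at 6 h in siControl (lowest -0.015) or siATF6 (lowest 0.095). The pipeline was tested on simulated counts with known changes. Exon overlaps were found in GENCODE annotation of GRCh38, and reads were not stranded.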

Additional observations from a re-analysis of the deposited data

Results flagged for a closer look

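The first group of results is a difference between siRNA groups in the same contrast, 0 over 25 mM glucose at 16 h, tested as an interaction in edgeR. CARS1 and GARS1 responded less in siATF4 than in siControl cells, with a difference of -1.02 each on the log2 scale. Part of it lay in 25 mM, where the siATF4 libraries of both genes were above every siControl library. CARS1 and GARS1 also responded less in siATF4 than in siATF6 cells, with differences of -0.86 for CARS1 and -0.82 for GARS1. In each test these were the 2 members of 38 past the threshold. Leaving out any 1 of the 12 libraries compared kept both genes called in each. With the transfection as a block GARS1 did not pass in either test, and with only the libraries compared CARS1 passed against siControl only. With all 36 libraries neither gene passed in either test.

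The second group is a difference between times in siControl cells, 16 h minus 6 h, of the same contrast. It was positive for WARS1 (1.94), GARS1 (1.79), AARS1 (1.70), CARS1 (1.67), SARS1 (1.35), MARS1 (0.99), YARS1 (0.97), IARS1 (0.92) and NARS1 (0.74). It was negative for AARS2 (-0.59), RARS1 (-0.54) and LARS2 (-0.53), which did not pass without the 6 h libraries of replicate 2. Part of the difference for CARS1 and GARS1 lay in 25 mM, where every 16 h library was below every 6 h library.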

How the results depend on the processing

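Numbers here are members past 0.05 of 38, up and down together. The number called over all genes moved with the settings too. For deprivation in siControl at 16 h it was 5229 in the main fit and 531 with all 36 libraries. For siATF4 deprivation it was 5233, then 325 with all 36 libraries and 1225 with only the libraries compared. With all 36 libraries in 1 fit, which include the one of 2.87 M counts, deprivation at 16 h gave 0 in siATF4, 3 in siATF6 and 2 in siControl, against 15, 17 and 19. The same fit gave 0 for siATF4 and for siATF6 against siControl in 0 mM at 16 h, 0 for siATF4 minus siControl and for siATF4 minus siATF6, and 1 each for siATF4 deprivation and siATF4 against siControl in 0 mM at 6 h. With only the libraries compared, siATF4 deprivation gave 6, siATF4 against siControl in 0 mM gave 0, siATF6 against siControl in 25 mM gave 3, and the interactions of siATF4 with siControl and siATF6 gave 1 and 0.

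With DESeq2, siATF4 against siControl gave 18 in 0 mM and 6 in 25 mM at 16 h, and siATF6 against siControl 5 and 3 at 16 h and 3 and 1 at 6 h. The interactions gave 6 (siATF4 minus siControl), 5 (siATF4 minus siATF6) and 1 (siATF6 minus siControl). With the replicate number as a block, siATF4 against siControl gave 18 in 0 mM and 1 in 25 mM, and siATF6 against siControl 3 and 1 at 16 h and 4 and 3 at 6 h. The interaction of siATF4 with siControl gave 5 (CARS1, GARS1, MARS1 at edgeR adjusted p = 0.00633, NARS1 at 0.0299 and WARS1 at 0.0288). That with siATF6 gave 3 (CARS1, GARS1 and MARS1 at 0.00286). For these interactions the numbers did not pair the siATF4 libraries of 0 and 25 mM (lowest correlation -0.358). The transfection as a block left 1 in each siATF4 interaction. For deprivation at 16 h it gave 15 in siATF4, 16 in siATF6 and 16 in siControl cells, with 5327, 6382 and 5497 over all genes. Without a filter, siATF6 against siControl in 0 mM gave 0. Without 6 h replicate 2, deprivation at 6 h gave 2 in each siRNA group. The time interaction with all 36 libraries gave 0. Over all genes, siATF4 against siControl in 0 mM at 16 h called 2235 in the main fit, 3596 with DESeq2 and 4076 with the replicate block. In 25 mM the all-gene numbers were 8, 162 and 38. For siATF4 minus siControl they were 31, 200 and 143, and for siATF4 minus siATF6 64, 300 and 218. For siATF6 against siControl at 16 h they were 725, 1531 and 1836 in 0 mM, and 135, 479 and 531 in 25 mM. At 6 h they were 57, 436 and 905 in 0 mM, and 91, 423 and 910 in 25 mM. With only the libraries compared, siATF6 against siControl in 25 mM at 16 h called 942 genes.

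Leaving out 1 library at a time gave 8 to 17 for siATF4 deprivation, 16 for siATF6 and 15 to 17 for siControl at 16 h. It gave 4 to 17 for siATF4 and 0 to 2 for siATF6 against siControl in 0 mM, 2 to 3 and 2 to 4 for siATF4 minus siControl and minus siATF6 (4 without siATF4, 0 mM, replicate 2), and 6 to 13 over time. Of 1123 values of called members under alternatives, 907 stayed past the threshold in the same direction, 216 did not pass and none changed sign. The cause of these shifts was not tested. The lowest chi-square per gene between replicates was 9.07, so the spread between replicates exceeded counting noise. Replicates 2 and 3 at 16 h in siControl and siATF6 were the closest pairs, with replicate 1 further apart.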

Other observations

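In siControl cells in 25 mM glucose, some cytosolic synthetases stood at different levels at the 2 times. GARS1 averaged 344 ± 15.6 CPM at 6 h and 158 ± 9.73 CPM at 16 h, and CARS1 averaged 135 ± 9.57 CPM at 6 h and 55.4 ± 2.04 CPM at 16 h (SD, n = 3 each). AARS1 averaged 433 ± 83.0 CPM at 6 h and 218 ± 19.5 CPM at 16 h, while LARS2 averaged 27.8 ± 1.94 CPM and 29.6 ± 1.90 CPM. These genes were picked after their values were seen, and this difference was not among the comparisons tested.

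HARS1 and HARS2, the cytosolic and mitochondrial histidine enzymes on chromosome 5, are transcribed away from each other from starts 107 bases apart in the annotation. Their exons share 437 bases, 5.56% of those of HARS1 and 11.7% of those of HARS2. At 16 h in siControl cells HARS1 fell, as reported above, and HARS2 had a log2 fold change of -0.17 (edgeR adjusted p = 0.158). SARS2 shares 46.2% of its exon bases with another gene on the same strand, VARS2 22.0% with GTF2H4 and EEF1E1 18.7% with a readthrough gene on the same strand, and their values are uncertain for that reason.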
